A study of Mus musculus with 32 samples.

Results

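The genes described here are 10 components of MHC class I antigen presentation: the light chain B2m, the peptide transporter genes Tap1 and Tap2, the loading factors Tapbp and Tapbpl, the immunoproteasome subunits Psmb8, Psmb9 and Psmb10, the transactivator Nlrc5 and the aminopeptidase Erap1. They were chosen by symbol, and each had its own row, out of 33654 genes, in every one of the 4 expression tables. RNA had been sequenced from mouse MMTV-PyMT breast cancer cells, a line from the model in which the polyoma middle T oncogene, driven in mammary epithelium, gives breast tumors. CD8 T cells, which recognise peptides held by class I molecules, were sequenced as well. Both were isolated from tumors 2, 3 and 4 weeks into their development, with 3, 4 and 4 libraries of tumor cells and 3 libraries of CD8 T cells per week. Xenografts gave a second set of both cell types, labelled shMogat1 (a hairpin RNA against the lipid synthesis enzyme Mogat1, genotype label "Mogat1 knockdown") or shCTRL (control hairpin, genotype label "WT"), with 3 libraries each. The labels give no week for the xenograft set. They give no host strain, age or sex for any group and do not say how the cells were purified. For the CD8 T cells they do not say which cells carried the hairpin. The genes of the class I heavy chains were not analysed here.

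Cells cut their own proteins in the proteasome, and the TAP transporter moves the peptides into the endoplasmic reticulum, where they are trimmed and loaded onto a class I heavy chain paired with beta-2-microglobulin. Interferon-gamma replaces the catalytic subunits of the constitutive proteasome by those of the immunoproteasome and raises most of the genes of the pathway, in part through Nlrc5. Loss of these genes in tumor cells is a well known way of losing recognition by CD8 T cells.

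Several of these genes share promoter elements, so the start regions were read for 4 short motifs. RefSeq promoter windows (GRCm38.p6, 250 bases before to 50 after the start site) were listed for 7 of the 10 genes, all but Tap2, Tapbpl and Nlrc5. The motifs were searched on both strands: an interferon-stimulated element (GAAA, any 2 bases, GAAA), a gamma-activated site (TTC, any 3 bases, GAA), a kappaB site (GGG, any 2 bases, TTTCC) and a CCAAT box (CCAAT). Over 32817 windows of the same length, 3.43% held the first, 8.29% the second, 1.63% the third and 37.4% the last. The windows of the 3 genes with a match to one of the first 3 motifs are printed with that match in capitals, and that of Tap1 is printed because it is shared with Psmb9.
B2m, chr2:122147437-122147736, plus strand: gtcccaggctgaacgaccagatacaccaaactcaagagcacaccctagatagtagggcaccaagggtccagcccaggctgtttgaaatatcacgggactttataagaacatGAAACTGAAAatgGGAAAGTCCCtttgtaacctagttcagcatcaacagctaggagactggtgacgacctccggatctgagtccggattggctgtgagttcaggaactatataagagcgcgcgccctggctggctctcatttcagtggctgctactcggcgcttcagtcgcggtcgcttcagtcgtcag
Psmb8, chr17:34197945-34198244, plus strand: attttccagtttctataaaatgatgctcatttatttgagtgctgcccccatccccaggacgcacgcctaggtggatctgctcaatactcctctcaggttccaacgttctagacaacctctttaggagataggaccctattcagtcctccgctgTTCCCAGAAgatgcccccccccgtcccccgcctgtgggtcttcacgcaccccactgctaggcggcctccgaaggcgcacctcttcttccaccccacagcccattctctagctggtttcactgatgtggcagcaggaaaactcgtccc
Erap1, chr13:74639603-74639902, plus strand: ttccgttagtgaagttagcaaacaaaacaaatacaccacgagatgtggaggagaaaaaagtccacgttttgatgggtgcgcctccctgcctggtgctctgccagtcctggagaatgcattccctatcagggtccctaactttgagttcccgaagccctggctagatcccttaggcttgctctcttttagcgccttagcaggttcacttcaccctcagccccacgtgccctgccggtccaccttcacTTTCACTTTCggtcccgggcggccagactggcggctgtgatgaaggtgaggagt
Tap1, chr17:34187306-34187605, plus strand: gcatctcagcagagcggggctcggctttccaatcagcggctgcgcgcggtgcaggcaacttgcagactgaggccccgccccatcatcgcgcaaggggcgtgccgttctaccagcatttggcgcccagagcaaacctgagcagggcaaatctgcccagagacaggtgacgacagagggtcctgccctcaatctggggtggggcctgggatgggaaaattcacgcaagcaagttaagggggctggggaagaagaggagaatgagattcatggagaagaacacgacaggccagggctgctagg
B2m held GAAACTGAAA from position -139 to -130 and, 3 bases further on, the reverse strand of a kappaB site, GGAAAGTCCC, from position -126 to -117 relative to its start site. The window of Psmb8 held the gamma-activated site TTCCCAGAA from -97 to -89, and that of Erap1 held the interferon-stimulated element on the reverse strand, TTTCACTTTC, across its start site. A CCAAT box, not marked in capitals, stood in the windows of 4 genes (B2m, Tap1, Tapbp and Psmb9). The matches of Tap1 and Psmb9 are the same bases read from opposite strands. Tap1 and Psmb9 are transcribed away from each other, from start sites 226 bases apart, and 275 bases of their windows are the same DNA on opposite strands. These matches describe the letters in the windows and say nothing about binding. Tap1, Psmb8, Psmb9 and Tap2 lie side by side on chromosome 17 in the MHC. There Tap1 and Psmb9 also share exonic bases on opposite strands, as do Erap1 and Cast on chromosome 13. Exons of Tapbp overlap those of Zbtb22 on the same strand, and those of Tap2, Tapbp, Psmb8 and Nlrc5 overlap other annotated genes on the opposite strand. Library kits were stranded, but how reads were counted is not given in the sources used here, so reads of such overlapping genes may not be fully told apart.

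All values are TPM, a transcript abundance corrected for gene length and library total, a unit that carries no sequencing depth, which is therefore unknown. Folds are differences of mean log2(TPM + 1) with their standard error (SE). "Rose" and "fell" are used of genes with an adjusted p under 0.05 (limma, Benjamini-Hochberg over all genes tested). Between 11829 and 14184 genes reached 1 TPM in a library, and all 10 genes passed the filter on low values (1 TPM in at least 3 libraries) in every table. Whether replicates came from different animals is not in the labels, and the p-values measure only the spread between these libraries, which may be technical. In the tumor time course, week 2 replicate 1 stood apart: Ptprc, the pan-leukocyte CD45 gene, reached 98.1 TPM there, against 27.4 and 42.2 TPM in the other week 2 libraries, so results that rest on it are given with and without it. In the hairpin set the targeted gene did not follow the labels, with a higher mean under shMogat1 in both cell types. All its values there lay under 1 TPM. Mogat1 stood at 0.624, 0.146 and 0.531 TPM in tumor cells labelled shMogat1 and was listed at 0 in the 3 libraries labelled shCTRL, and at 0.515, 0.577 and 0.208 against 0.208, 0.286 and 0.211 TPM in CD8 T cells. The CD8 T cell groups overlapped, and Mogat1 was under the filter in both cell types of this set and so was not tested. Every direction given for the hairpin set follows the labels. In tumor cells over time Mogat1 averaged 2.28, 6.82 and 37.1 TPM in weeks 2, 3 and 4.

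B2m was the most abundant of the 10 transcripts in all 10 groups, Psmb8 stood next and Tapbpl was lowest. In tumor cells the class I genes were lower in week 4 than in week 2: 7 of 10 fell (B2m, Tapbpl, all 3 immunoproteasome subunits, Nlrc5 and Erap1) and 0 rose. Of all 14770 genes tested, 46.3% passed in either direction, 17.1% falling and 29.2% rising. The median log2 fold change was -0.90 over the 10 genes and 0.11 over all genes tested. Tap1, Tap2 and Tapbp did not pass, and their week 2 libraries spread most widely.

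The immunoproteasome subunits are taken first. Psmb10, which takes the place of Psmb7, stood at 246, 242 and 237 TPM in week 2, at 221, 161, 203 and 153 TPM in week 3 and at 86.8, 78.0, 60.2 and 47.5 TPM in week 4. No library overlapped between any 2 of the weeks, and week 4 lay lowest. The fall from week 2 was -1.85 on the log2 scale (SE 0.19, adjusted p = 3.9e-05). Psmb9, the counterpart of Psmb6, stood at 286, 322 and 330 TPM in week 2, at 320, 202, 287 and 243 TPM in week 3 and at 200, 167, 135 and 102 TPM in week 4. Weeks 2 and 3 overlapped, and all 4 week 4 libraries lay below both (log2 -1.09 against week 2, SE 0.21, adjusted p = 0.00192). Psmb8, the counterpart of Psmb5, stood at 685, 711 and 747 TPM in week 2, at 784, 546, 711 and 597 TPM in week 3 and at 514, 480, 388 and 314 TPM in week 4. It showed the same order of groups with a smaller fold (log2 -0.78 against week 2, SE 0.17, adjusted p = 0.00393).

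The transporter and loading genes were split. Tap1 stood at 277, 167 and 148 TPM in week 2, at 296, 186, 250 and 211 TPM in week 3 and at 155, 143, 118 and 81.6 TPM in week 4. Its highest week 4 library lay above the lowest of week 2, and the difference did not pass (log2 -0.65, SE 0.26, adjusted p = 0.0608). Tap2, its partner in the transporter, stood at 244, 120 and 116 TPM in week 2, at 253, 175, 222 and 188 TPM in week 3 and at 182, 159, 139 and 123 TPM in week 4. Here week 4 lay between the high and the low week 2 libraries (log2 -0.01, SE 0.25, adjusted p = 0.969). Tapbp encodes tapasin, which bridges TAP and the heavy chain. It stood at 554, 238 and 209 TPM in week 2, at 452, 392, 436 and 368 TPM in week 3 and at 284, 279, 233 and 224 TPM in week 4. Replicate 1 of week 2 was more than the sum of the other replicates of that week, and week 4 against week 2 did not pass (log2 -0.25, SE 0.27, adjusted p = 0.471). Tapbpl, a tapasin relative that edits peptides outside the loading complex, did fall. It stood at 37.4, 27.7 and 27.2 TPM in week 2, at 33.4, 24.1, 30.4 and 28.3 TPM in week 3 and at 15.5, 16.5, 13.2 and 10.4 TPM in week 4 (log2 -1.10 against week 2, SE 0.17, adjusted p = 0.000525). All week 4 libraries lay below all of the other weeks.

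B2m, which every class I complex needs to reach the cell surface, fell in week 3 against week 2 and in week 4 against week 3, the first of these on a less stable call. It stood at 8888, 11984 and 10231 TPM in week 2, at 6678, 5740, 6873 and 5858 TPM in week 3 and at 4361, 3884, 3296 and 2909 TPM in week 4. The 3 weeks did not overlap (log2 -1.53 for week 4 against week 2, SE 0.16, adjusted p = 4.69e-05). Erap1, which trims peptides in the endoplasmic reticulum, stood at 89.1, 101 and 113 TPM in week 2, at 85.9, 78.0, 81.8 and 75.3 TPM in week 3 and at 50.95, 57.9, 45.9 and 43.2 TPM in week 4. It too was without overlap between weeks (log2 -1.02, SE 0.12, adjusted p = 6.66e-05). Nlrc5, the transactivator of class I genes, stood at 85.0, 67.0 and 61.7 TPM in week 2, at 104, 58.7, 92.4 and 76.9 TPM in week 3 and at 52.9, 49.3, 41.4 and 32.5 TPM in week 4. Its week 4 libraries lay below those of both other weeks (log2 -0.69 against week 2, SE 0.21, adjusted p = 0.0204).

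**Figure D1:**
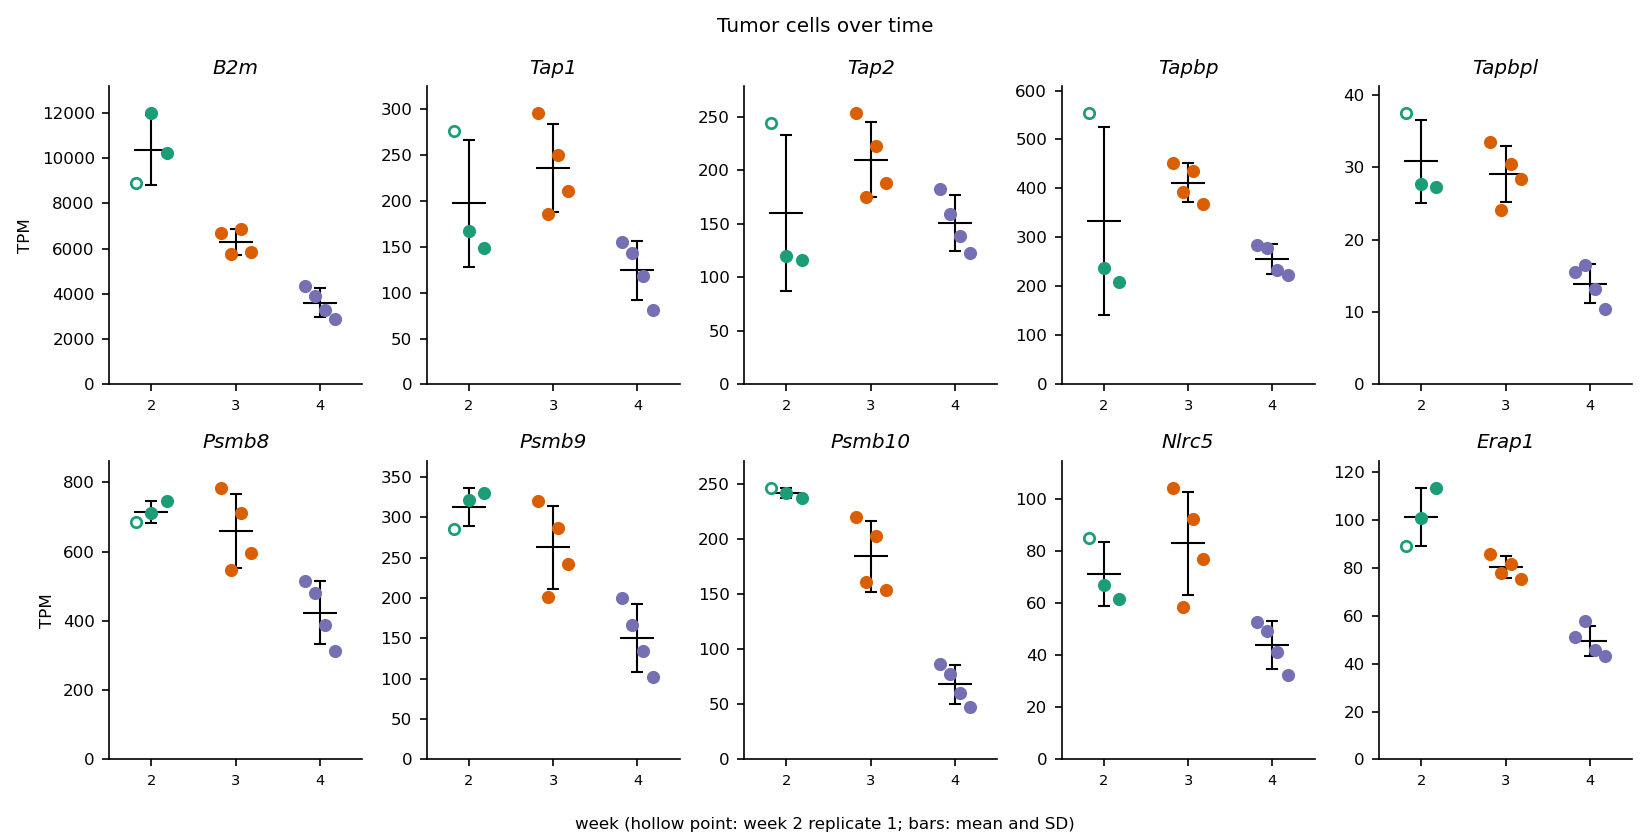
TPM of each of the 10 genes (linear axes from 0) in tumor cells at weeks 2, 3 and 4, with 1 point per library and bars for the mean and SD (n = 3, 4 and 4); the hollow point is week 2 replicate 1. B2m, Psmb10 and Erap1 step down at each week without overlap. Tap2 and Tapbp in week 4 lie within the range of week 2, and the remaining genes have their lowest mean in week 4. The hollow point stands apart for Tap1, Tap2 and Tapbp. For Tap2 all week 4 points lie above the filled points of week 2.

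The calls of week 4 against week 2 were mostly stable: B2m, Tapbpl, Psmb8, Psmb9, Psmb10 and Erap1 fell under all 17 alternatives. Nlrc5 did not pass without week 2 replicate 1 (adjusted p = 0.0642) or without week 4 replicate 4 (0.0533; range over the alternatives 0.00384 to 0.0642), and Tap1 passed without week 2 replicate 3 (0.0372), without week 4 replicate 1 (0.0452) and with median-of-ratios rescaling (0.0133; range 0.0133 to 0.221). Without week 2 replicate 1 the signs of Tap2 and Tapbp turned (log2 0.33 and 0.19, neither passing).

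The course was then split into its steps. In week 4 against week 3, 8 of the 10 genes fell (all but Tap2 and Tapbp) and 0 rose, where 8.19% of all genes fell and 5.53% rose, 13.7% together. The folds of the 8 ran from -0.65 for Psmb8 to -1.45 for Psmb10. Libraries of week 4 lay wholly below those of week 3 for 9 genes, Tap2 being the exception, and did so for 15.9% of all genes tested. Tap2 had a log2 difference of -0.48 (adjusted p = 0.197) and Tapbp of -0.69 (0.092). In week 3 against week 2 B2m alone fell (log2 -0.72, SE 0.16, adjusted p = 0.0116) and 0 rose, where 4.01% of all genes fell and 20.1% rose, 24.1% together. Week 3 libraries lay below those of week 2 for B2m, Psmb10 and Erap1 and overlapped them for the other 7, and lay below them for 5.64% of all genes tested. The 3 comparisons share libraries and are not independent.

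The step between weeks 3 and 4 was tested against that between weeks 2 and 3 directly. By limma 0 of the 10 genes passed, where 2.3% of all genes did (0.223% higher and 2.08% lower), and 6 had an unadjusted p under 0.05 (Tap1, Tap2, Tapbp, Tapbpl, Psmb10 and Nlrc5), as did 18.8% of all genes. Here week 2 replicate 1 decided the count. Without it those 6 genes passed, with differences between the steps of -1.05 (Psmb10) to -1.57 (Tapbp) and adjusted p of 0.000419 to 0.0486, and the share of all genes that passed was 24.3%. For the same genes the range of adjusted p over all alternatives reached 0.463, in Tap2. Without that library, Tap2 and Tapbp were also higher in week 3 than in week 2 and passed (log2 0.81, adjusted p = 0.00369, range 0.00369 to 0.502, and log2 0.88, adjusted p = 0.000282, range 0.000282 to 0.669). They then passed as lower in week 4 than in week 3 (adjusted p = 0.0328, range to 0.391, and 0.00131, range to 0.201). Erap1 then fell in week 3 against week 2 as well (adjusted p = 0.0154, range to 0.188).

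The fall of B2m in week 3 against week 2 was lost in 4 of 17 alternatives (adjusted p 0.00241 to 0.401). With quantile normalization its log2 difference was -0.20 (adjusted p = 0.401) and the difference between its steps was -0.73, against -0.10 without it, neither passing. The call was also lost without the filter on low values (0.0881) and without week 2 replicate 2 (0.062), among others. In week 4 against week 3, Tap1 and Psmb8 each missed it without week 3 replicates 1 or 3 or week 4 replicates 3 or 4 (0.0529 to 0.0726), and Psmb9 without week 3 replicates 1 or 3 or week 4 replicate 3 (0.0523 to 0.0611). The number of the 10 genes called there ran from 5 to 10.

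The contents of the libraries moved with the weeks. Summed over 5 epithelial markers, tumor cell libraries held 1698 to 2072 TPM in week 4 and 983 to 1334 TPM in week 2. Over 7 T cell markers the sums were 17.4 to 38.0 TPM in week 4 and 69.4 to 228 TPM in week 2, and over 5 endothelial markers 23.2 to 35.7 TPM and 99.5 to 196 TPM. Sums over 4 B cell markers were 0.613 to 7.28 TPM in week 4 and 24.2 to 147 TPM in week 2, and over 3 neutrophil markers 133.5 to 222 TPM and 23.2 to 67.9 TPM. The 7 macrophage markers overlapped, with 145 to 974 TPM in week 4 and 498 to 2199 TPM in week 2. Sums over 5 fibroblast markers overlapped too, with 1128 to 3359 TPM in week 4 and 1672 to 5932 TPM in week 2. In week 2 the lowest fibroblast sum lay above the highest epithelial sum. No marker of these lists was at 0 in all libraries of a week. In bulk libraries, fewer cells of a type and less RNA per cell cannot be told apart, and the part of these other cells in the class I values was not tested.

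Other genes of the pathway were mixed. Of the 3 constitutive catalytic subunits, 2 fell in week 4 against week 2: Psmb5 (log2 -0.38, SE 0.11, adjusted p = 0.0149) and Psmb6 (log2 -0.52, SE 0.10, adjusted p = 0.0016), while Psmb7 did not pass (log2 -0.25, adjusted p = 0.122). Of 11 other core subunits of the proteasome 8 fell and 0 rose, with a median log2 difference of -0.43. Psme1 and Psme2, which form the interferon-inducible activator of the proteasome, both fell (log2 -0.47, adjusted p = 0.0289, and log2 -0.83, adjusted p = 0.00162), among 4 of 9 activator and assembly genes that fell and 1 that rose. Of 6 chaperones of loading and glycoprotein folding 0 fell and 1 rose. Calr, Canx and Pdia3, which serve the loading complex, had log2 differences of 0.05, -0.06 and -0.13 and did not pass. Of 6 other peptide trimming enzymes 2 rose and 1 fell. In the list of 17 genes of interferon-gamma signalling and class I regulation, 7 fell and 5 rose. Ifng, the gene of interferon-gamma itself, fell (log2 -1.53, SE 0.40, adjusted p = 0.00892) and averaged 0.883 TPM in week 4 and 4.46 TPM in week 2. Irf1 did not pass (log2 -0.26, adjusted p = 0.258).

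Set against its constitutive counterpart in the same library, each immunoproteasome subunit was lowest in week 4. Psmb10 over Psmb7 averaged 0.769 ± 0.133 in week 2, 0.733 ± 0.0822 in week 3 and 0.252 ± 0.0480 in week 4 (SD, n = 3, 4 and 4). Psmb9 over Psmb6 averaged 1.18 ± 0.0718, 1.14 ± 0.210 and 0.807 ± 0.178 at the same weeks, and Psmb8 over Psmb5 averaged 7.69 ± 0.804, 8.08 ± 1.32 and 5.89 ± 0.929. Week 4 libraries lay below all of week 2 in each of the 3 ratios, and below all of week 3 in that of Psmb10 over Psmb7 only. The ratio of Tap1 to Tap2, which pair in 1 transporter, averaged 1.27 ± 0.129, 1.12 ± 0.0436 and 0.817 ± 0.103. These ratios are given as a description.

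**Figure D2:**
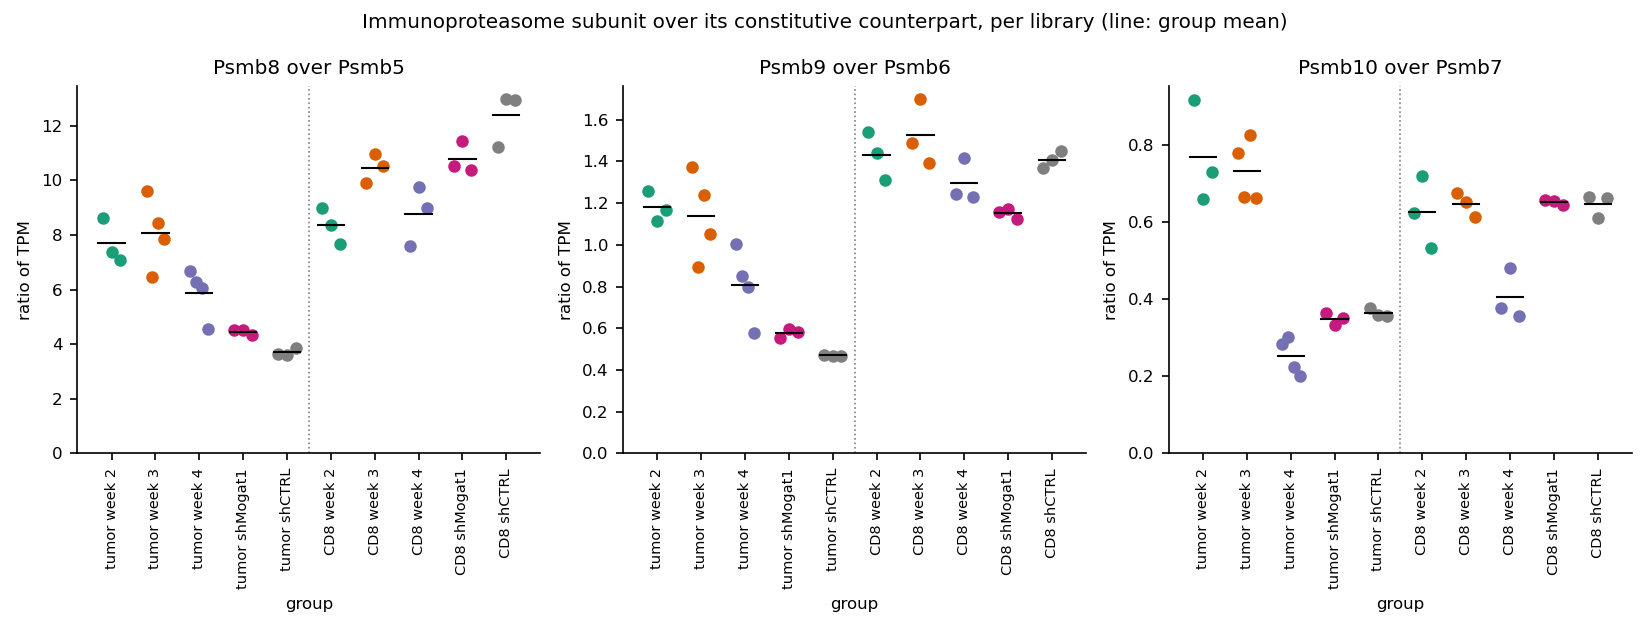
Ratio of TPM of each immunoproteasome subunit to its constitutive counterpart (linear axes from 0), 1 point per library with a line at the group mean, tumor cells left and CD8 T cells right of the dotted line. In tumor cells Psmb10 over Psmb7 averages 0.252 in week 4 and 0.769 in week 2. In CD8 T cells it averages 0.405 and 0.626, where neither Psmb10 (log2 -0.07) nor Psmb7 (log2 0.55) passed by limma. There Psmb9 over Psmb6 averages 1.295 in week 4 and 1.431 in week 2, and Psmb8 over Psmb5 averages 8.78 and 8.35.

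In CD8 T cells few of the class I genes passed in the comparisons of weeks. In week 4 against week 2, 2 of 10 genes fell (Tap1 and Tapbpl) and 0 rose, where 7.18% of all 13350 genes tested fell and 10.3% rose, 17.5% together. In week 3 against week 2 limma called 0, with 0 at an unadjusted p under 0.05, where 0.0449% of all genes passed and 13.7% had such an unadjusted p. In week 4 against week 3 Tapbpl alone fell and 0 rose, where 1.29% of all genes fell and 1.38% rose, 2.67% together. These comparisons share libraries in the same way as those of the tumor cells.

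Tapbpl stood at 80.1, 77.5 and 67.7 TPM in week 2, at 70.3, 78.4 and 74.7 TPM in week 3 and at 44.7, 52.2 and 47.3 TPM in week 4. Week 4 lay wholly below the other weeks, which overlapped. The fold was -0.63 on the log2 scale against week 2 (SE 0.11, adjusted p = 0.00689) and -0.62 against week 3 (SE 0.11, adjusted p = 0.0213). Tap1 stood at 261, 302 and 219 TPM in week 2, at 288, 320 and 243 TPM in week 3 and at 160, 204 and 180 TPM in week 4. Its week 4 libraries too lay below all others (log2 -0.52 against week 2, SE 0.15, adjusted p = 0.046; log2 -0.64 against week 3, adjusted p = 0.0601).

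Tap2, Tapbp and Nlrc5 also had lower means in week 4 than in both earlier weeks without passing. Tap2 averaged 178 ± 34.7, 213 ± 41.9 and 133 ± 27.6 TPM in weeks 2, 3 and 4 (SD, n = 3 each), with a log2 difference of -0.42 for week 4 against week 2 (adjusted p = 0.173). Tapbp averaged 300 ± 76.8, 313 ± 66.8 and 197 ± 43.9 TPM (log2 -0.59, adjusted p = 0.115). Nlrc5 averaged 141 ± 31.0, 162 ± 26.1 and 98.1 ± 11.9 TPM (log2 -0.50, adjusted p = 0.0881), and its highest week 4 library, at 105.54 TPM, lay just under the lowest of week 2, at 105.58 TPM. For Tap2 and Tapbp weeks 4 and 2 overlapped.

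B2m, the immunoproteasome subunits and Erap1 did not pass in any of the week comparisons. B2m stood at 6277, 5878 and 7224 TPM in week 2, at 5983, 6601 and 6811 TPM in week 3 and at 6929, 6214 and 5801 TPM in week 4 (log2 -0.03 for week 4 against week 2, SE 0.12, adjusted p = 0.874). The weeks overlapped fully. Psmb8 averaged 521 ± 45.8, 598 ± 41.8 and 578 ± 96.3 TPM, Psmb9 211 ± 13.7, 241 ± 22.0 and 238 ± 41.8 TPM, and Psmb10 90.04 ± 5.36, 103 ± 11.4 and 87.8 ± 22.8 TPM in weeks 2, 3 and 4. Their log2 differences of week 4 against week 2 were 0.14, 0.16 and -0.07. The trimming enzyme Erap1 averaged 80.5 ± 9.48, 93.2 ± 3.87 and 81.8 ± 9.48 TPM (log2 0.02). The step between weeks 3 and 4 against that between weeks 2 and 3 passed for 0 of the 10 genes by limma, with 4 at an unadjusted p under 0.05, where 0.0599% of all genes passed and 9.93% had such an unadjusted p.

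**Figure D3:**
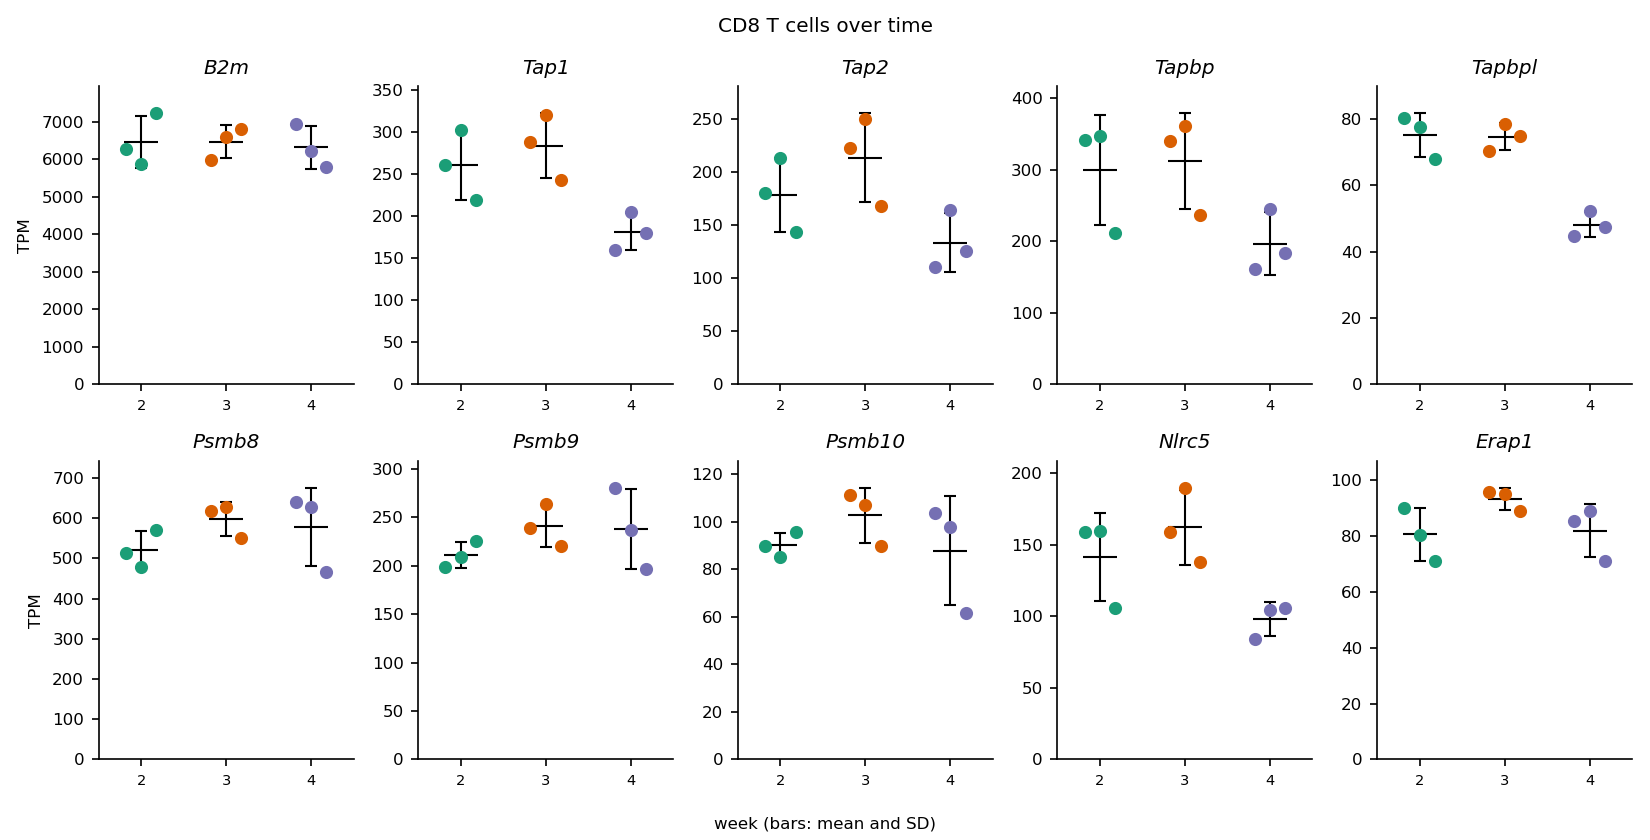
TPM of each of the 10 genes (linear axes from 0) in CD8 T cells at weeks 2, 3 and 4, with 1 point per library and bars for the mean and SD (n = 3 each). Tap1, Tapbpl and, by a narrow margin, Nlrc5 lie lowest in all week 4 libraries, whereas B2m averages 6315 TPM in week 4 and 6460 TPM in week 2.

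The call of Tap1 in week 4 against week 2 was weak: it failed in 10 of 15 alternatives (adjusted p 0.0235 to 0.169), among them those without week 2 replicate 1 (0.121) or 2 (0.151), week 3 replicate 1 (0.0677) or 3 (0.0553) or week 4 replicate 2 (0.144), 3 (0.0602) or 4 (0.0725). Without week 2 replicate 3, Nlrc5 and Tapbp passed as lower in week 4 (0.0196, range to 0.263, and 0.0316, range to 0.342), and in week 4 against week 3 Tap1 and Nlrc5 passed (0.0411, range to 0.214, and 0.0332, range to 0.25). Tapbpl against week 3 missed the threshold without week 3 replicates 3 or 4 or week 4 replicates 2 or 3 (0.0564 to 0.111, range 0.0178 to 0.132). Against week 2 it passed in all 15 alternatives.

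Around these genes, Ifng, the cytokine through which T cells raise class I on their targets, averaged 48.1, 100 and 271 TPM in weeks 2, 3 and 4 and rose in week 4 against week 2 (log2 2.55, SE 0.39, adjusted p = 0.00504). In the list of 17 interferon-gamma and regulator genes 2 rose and 1 fell. Of the constitutive, other core, and activator and assembly genes of the proteasome 0 rose and 0 fell by limma, and Psmb7 had an unadjusted p of 0.0173 (log2 0.55). Of 6 chaperones 2 rose, Canx among them (log2 0.33, adjusted p = 0.0497), and of 6 other trimming enzymes 2 rose. Psmb10 over Psmb7 averaged 0.626 ± 0.0933, 0.647 ± 0.0311 and 0.405 ± 0.0668 in weeks 2, 3 and 4. Psmb9 over Psmb6 averaged 1.431, 1.526 and 1.295, and Psmb8 over Psmb5 averaged 8.35, 10.46 and 8.78. Endothelial marker sums were 29.5 to 71.1 TPM in week 4 and 102 to 128 TPM in week 2, and epithelial sums were 152 to 233 TPM and 67.3 to 110 TPM. Fibroblast sums were 25.3 to 31.7 TPM and 52.3 to 409 TPM. Neutrophil sums were 17.2 to 64.1 TPM in week 4 and 0.169 to 15.7 TPM in week 2, and NK cell sums were 12.3 to 22.4 TPM and 7.535 to 11.7 TPM. T cell sums overlapped, at 5309 to 5942 TPM and 5202 to 5552 TPM, as did macrophage sums, at 257 to 381 TPM and 54.6 to 326 TPM. The part of these cells in the class I values was not tested.

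The hairpin set compares cells from xenografts with a Mogat1 hairpin with those from controls. In tumor cells labelled shMogat1, 7 of the 10 genes rose against shCTRL (Tap1, Tap2, Tapbp, Tapbpl, Psmb8, Psmb9 and Erap1) and B2m fell slightly, where 34.6% of the 12936 genes tested rose and 19.9% fell, 54.5% together. The 7 rises were small, from 0.25 to 0.41 on the log2 scale. The coefficient of variation of the 10 genes had a median of 1.6% in shCTRL and 3.6% in shMogat1 libraries. In tumor cells of weeks 2, 3 and 4 it was 16.1%, 16.6% and 20%. The median log2 fold change was 0.30 over the 10 genes and 0.08 over all genes tested. Psmb10 and Nlrc5 did not pass.

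Psmb9 stood at 120, 128 and 122 TPM in tumor cells labelled shMogat1, against 93.2, 95.2 and 96.1 TPM in shCTRL (log2 0.37, SE 0.03, adjusted p = 2.74e-05). Psmb8 stood at 364, 327 and 336 TPM in shMogat1 libraries, against 275, 277 and 274 TPM in shCTRL (log2 0.31, SE 0.04, adjusted p = 0.000215). Neither gene overlapped between the labels. Psmb10 did overlap, at 112, 107 and 109 TPM in shMogat1 libraries and 114, 111 and 107 TPM in shCTRL (log2 -0.02, SE 0.03, adjusted p = 0.594).

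Tap1 stood at 84.4, 79.1 and 81.5 TPM in tumor cells labelled shMogat1, against 70.5, 67.5 and 68.0 TPM in shCTRL (log2 0.25, SE 0.03, adjusted p = 0.000393). Tap2 stood at 118, 116 and 115 TPM in shMogat1 libraries, against 95.1, 94.9 and 97.1 TPM in shCTRL (log2 0.28, SE 0.02, adjusted p = 2.58e-05). Both transporter genes were higher without overlap. Tapbp stood at 243, 242 and 245 TPM in shMogat1 libraries, against 200, 193 and 195 TPM in shCTRL (log2 0.31, SE 0.02, adjusted p = 7.82e-06). For its relative Tapbpl the values were 21.3, 18.3 and 20.7 TPM in shMogat1 libraries, against 15.0, 14.5 and 15.2 TPM in shCTRL (log2 0.41, SE 0.06, adjusted p = 0.000842). The loading genes did not overlap either.

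Erap1 stood at 69.3, 75.0 and 73.5 TPM in shMogat1 libraries, against 58.7, 58.3 and 57.9 TPM in shCTRL (log2 0.31, SE 0.03, adjusted p = 0.000139). B2m stood at 4533, 4869 and 4676 TPM in shMogat1 libraries, against 4993, 4867 and 4958 TPM in shCTRL (log2 -0.07, SE 0.03, adjusted p = 0.0429). Those groups overlapped by 1 library, and Nlrc5 overlapped too, with 39.5 ± 2.17 TPM and 38.0 ± 1.14 TPM (SD, n = 3 each; log2 0.05, adjusted p = 0.356). The fall of B2m was lost in 8 of 11 alternatives (adjusted p 0.00449 to 0.311), including without shCTRL replicates 1, 2 or 4 (0.124, 0.0562 and 0.102) or shMogat1 replicates 1 or 4 (0.0931 and 0.0971). The 7 rises passed in all 11.

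**Figure D4:**
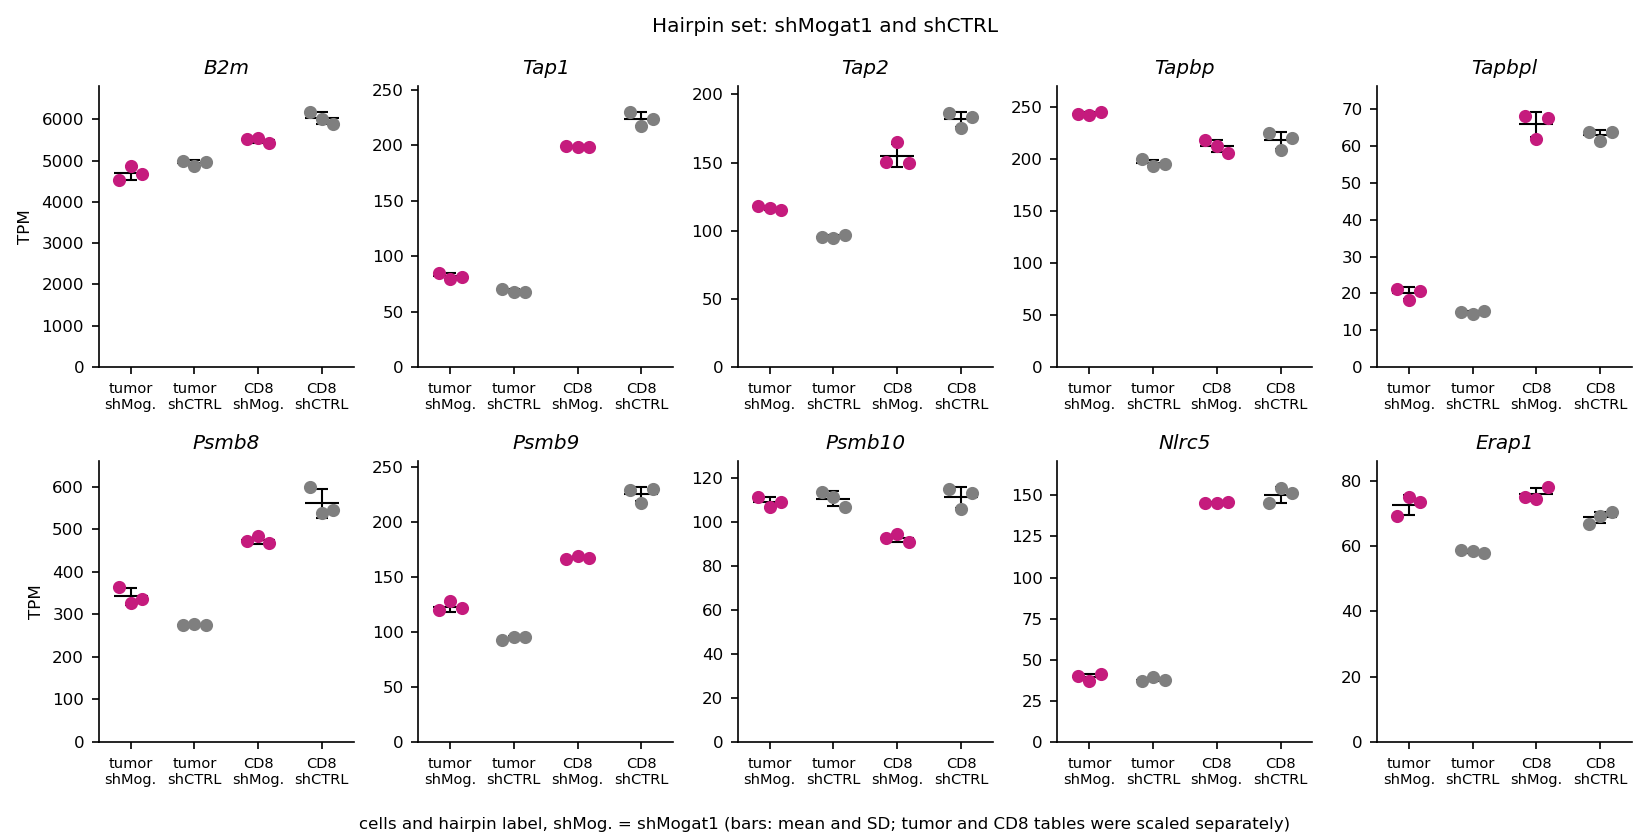
TPM of each of the 10 genes (linear axes from 0) in tumor cells and CD8 T cells from the hairpin set, shMogat1 left of shCTRL, with 1 point per library and bars for the mean and SD (n = 3 each). In tumor cells 7 genes stand higher in shMogat1 libraries without overlap (39.7% of all genes tested do), and in CD8 T cells 6 genes stand lower (32.8% of all) and Erap1 higher (22.1% of all) without overlap.

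The tumor cell libraries of the hairpin set differed in content between the labels. Epcam, which marks epithelial cells, stood at 29.6 ± 1.17 TPM in shMogat1 libraries and 0.692 ± 0.155 TPM in shCTRL (SD, n = 3 each). Of the 5 epithelial markers, 2 (Epcam and Krt19) were under 1 TPM in every shCTRL library. Sums over 5 epithelial markers were 932 to 972 TPM in shMogat1 libraries and 201 to 217 TPM in shCTRL, and over 5 fibroblast markers 1004 to 1016 TPM and 3145 to 3177 TPM. Macrophage sums were 530 to 542 TPM and 258 to 280 TPM, and Ptprc stood at 11.5 TPM and 4.06 TPM on average. The part of these differences in the class I values was not tested, and with 1 condition per label they cannot be told apart from the hairpin.

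Irf1, a transcription factor of the interferon response, and the genes of the PA28 activator were also higher. Irf1 rose in tumor cells labelled shMogat1 (log2 0.34, SE 0.03, adjusted p = 6.55e-05), as did Psme1 (log2 0.32, adjusted p = 8.95e-05) and Psme2 (log2 0.37, adjusted p = 0.000209). Ciita, the transactivator of class II genes, rose with 2.76 ± 0.149 TPM in shMogat1 libraries and 0.378 ± 0.0604 TPM in shCTRL (log2 1.45, adjusted p = 1.56e-05). In the interferon-gamma and regulator list 6 of 16 tested genes rose and 2 fell. Of the constitutive subunits Psmb6 rose by 0.08 on the log2 scale (adjusted p = 0.0188) and Psmb5 and Psmb7 did not pass; of the 11 other core subunits 3 rose and 0 fell. Of 9 activator and assembly genes 3 rose and 1 fell, and of 6 other trimming enzymes 2 rose and 2 fell. Of 6 chaperones 3 rose and 2 fell, with Calr lower (log2 -0.20, adjusted p = 1.97e-05) and Canx and Pdia3 higher (log2 0.15 each, adjusted p = 0.000326 and 0.000167). Psmb8 over Psmb5 averaged 4.46 ± 0.0993 in shMogat1 libraries and 3.70 ± 0.138 in shCTRL.

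In CD8 T cells labelled shMogat1 most of the genes were lower. Against shCTRL 6 of 10 fell (B2m, Tap1, Tap2, Psmb8, Psmb9 and Psmb10) and Erap1 rose, where 26.2% of the 13742 genes tested fell and 16.6% rose, 42.8% together. Tapbp, Tapbpl and Nlrc5 did not pass. The median log2 fold change was -0.15 over the 10 genes and -0.05 over all genes tested.

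Psmb9 stood at 167, 169 and 167 TPM in CD8 T cells labelled shMogat1, against 229, 218 and 230 TPM in shCTRL (log2 -0.43, SE 0.03, adjusted p = 3.94e-05). Psmb8 stood at 472, 483 and 467 TPM in shMogat1 libraries, against 600, 537 and 545 TPM in shCTRL (log2 -0.24, SE 0.04, adjusted p = 0.00388). Psmb10 stood at 92.7, 94.9 and 91.1 TPM in shMogat1 libraries, against 115, 106 and 113 TPM in shCTRL (log2 -0.26, SE 0.04, adjusted p = 0.00176). All 3 immunoproteasome subunits lay below shCTRL without overlap, and Psmb9 had the largest fold of the 10 genes.

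Tap1 stood at 199, 198 and 198 TPM in CD8 T cells labelled shMogat1, against 230, 217 and 224 TPM in shCTRL (log2 -0.17, SE 0.03, adjusted p = 0.00372). Tap2 stood at 151, 165 and 150 TPM in shMogat1 libraries, against 186, 175 and 184 TPM in shCTRL (log2 -0.23, SE 0.05, adjusted p = 0.00528). B2m stood at 5522, 5556 and 5426 TPM in shMogat1 libraries, against 6191, 6016 and 5892 TPM in shCTRL (log2 -0.13, SE 0.03, adjusted p = 0.0124). These 3 genes too did not overlap between labels. Erap1 was the only one of the 10 to rise, with 74.9, 74.3 and 78.2 TPM in shMogat1 libraries against 66.8, 69.2 and 70.3 TPM in shCTRL (log2 0.14, SE 0.04, adjusted p = 0.0212). Tapbp (log2 -0.04), Tapbpl (log2 0.06) and Nlrc5 (log2 -0.05) overlapped between the labels. Tap1, Tap2, Psmb8 and Psmb9 thus lay above shCTRL in tumor cells and below it in CD8 T cells without overlap, as did 12.4% of the 12170 genes tested in both tables.

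Leaving out shMogat1 replicate 3 ended the calls of B2m (adjusted p = 0.0619, range 0.000517 to 0.141) and Erap1 (0.0806, range 0.00453 to 0.0806), and leaving out shMogat1 replicate 1 ended that of Erap1 (0.0506). Tap2, Psmb8, Psmb9 and Psmb10 passed in all 11 alternatives.

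Most core genes of the constitutive proteasome were lower as well. Psmb6 and Psmb7 fell (log2 -0.14, adjusted p = 0.0207, and log2 -0.27, adjusted p = 0.000216), and Psmb5 did not pass (log2 -0.04, adjusted p = 0.753). Of the 11 other core subunits 8 fell and 0 rose. Psmb10 over Psmb7 averaged 0.652 ± 0.00697 in shMogat1 libraries and 0.647 ± 0.0304 in shCTRL. Psmb9 over Psmb6 averaged 1.15 ± 0.0264 and 1.41 ± 0.0411. Psme1 and Psme2 fell (log2 -0.18 and -0.13, adjusted p = 0.0318 and 0.0433), among 4 of 9 activator and assembly genes that fell and 1 that rose. Of 6 chaperones 3 fell and 0 rose, and of 6 other trimming enzymes 3 rose and 2 fell. In the interferon-gamma and regulator list 8 of 17 rose and 2 fell: Ifng rose (log2 0.26, adjusted p = 0.00135) with 127 ± 5.33 TPM in shMogat1 libraries and 106 ± 1.78 TPM in shCTRL, and Irf1 rose (log2 0.19, adjusted p = 0.00243). Epithelial marker sums were 209 to 213 TPM in shMogat1 libraries and 92.0 to 98.0 TPM in shCTRL, fibroblast sums 500 to 530 TPM and 1067 to 1087 TPM, and dendritic cell sums 5.42 to 6.31 TPM and 13.5 to 14.1 TPM. Macrophage sums were 1998 to 2103 TPM in shMogat1 libraries and 1845 to 1888 TPM in shCTRL. The part of these cells in the class I values was not tested.

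**Figure D5:**
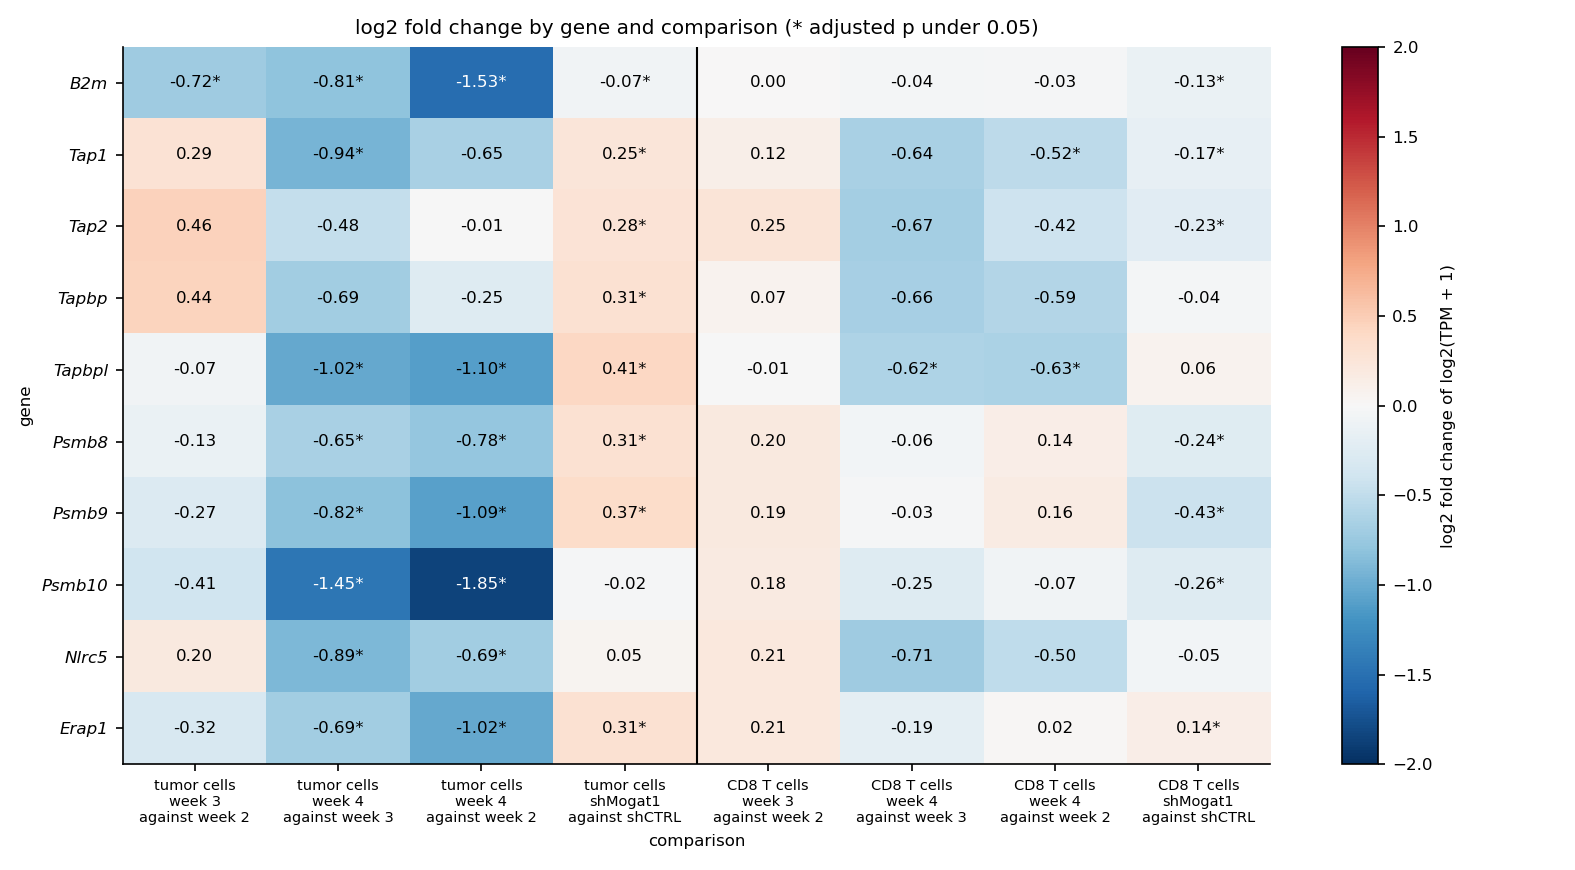
Log2 fold change of each gene (rows) in each comparison (columns), on log2(TPM + 1), printed in each cell and coloured from blue (lower) to red (higher), with an asterisk at an adjusted p under 0.05. The tumor cell columns run from -1.85 for Psmb10 in week 4 against week 2 to 0.46 for Tap2 in week 3 against week 2, and the CD8 T cell columns run from -0.71 to 0.25.

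The 10 genes differed in how closely each followed the mean course of the set, measured as the root mean square difference of the centred log2 values over the libraries of a time course. That mean included each of the 10 genes itself but no gene outside the set, so the 2 kinds of distance cannot be compared directly. In tumor cells (11 libraries) Tapbpl lay nearest (0.108), followed by Psmb8 (0.135) and Nlrc5 (0.136), and Psmb10 (0.4) and Tap2 (0.393) lay farthest. Outside the set the nearest of all 14770 genes were Eif4e3 (0.12), Tmem192 (0.124), Mlkl (0.13), Fam189a1 (0.145) and Parp12 (0.151). Eif4e3, for example, averaged 41.7, 37.5 and 20.4 TPM in weeks 2, 3 and 4. Fam189a1 averaged only 1.11, 1.16 and 0.266 TPM, near or under the 1 TPM of the filter. In CD8 T cells (9 libraries) Erap1 lay nearest of the 10 (0.133) and Tapbp farthest (0.249). There the nearest other genes were Mtrr (0.0687), Setdb1 (0.0692), Stard3 (0.0716), Rac1 (0.0721) and Isoc1 (0.0723).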

How the data were processed

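The 32 libraries, in 4 tables, came from TRIZOL extracts and a stranded mRNA kit, per the labels' protocols. The authors deposited TPM values, 1 row per gene symbol; per the submitters' processing notes, which give no versions, HISAT2, Trim Galore and FastQC were used with the mm10 build. The read counter, annotation and gene lengths are not given in the sources used here. TPM keeps no depth, so no counting intervals are given. Of 33681 rows per table, 27 that carried a date for a symbol were left out (at most 0.184% of TPM). As each table has its own scaling, no test spans tables.

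Tests used limma 3.58.1 in R 4.3.3 (lmFit, eBayes with trend) on log2(TPM + 1) for genes at 1 TPM or more in at least 3 libraries, all groups of a table in 1 fit, Benjamini-Hochberg adjusted over all tested genes, with a threshold of 0.05. The script was tested on simulated data. Python 3.11.15 with pandas 2.3.3 made summaries and motif searches. Gene positions come from GENCODE M21, promoters from RefSeq.

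The members, gene lists and tests were chosen with earlier results of these data known. Genes named are the 10 members, the constitutive subunits, PA28 and interferon genes listed with them, and the 5 nearest in pattern per time course; not every gene of that rule is reported here. Alternatives were a pseudocount of 0.1, no filter, median-of-ratios rescaling, quantile normalization, replicate number as a block, a fit of 2 weeks only and leaving out each library.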

Additional observations from a re-analysis of the deposited data

Results flagged for a closer look

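For 4 genes every library labelled shMogat1 lay above every shCTRL library in tumor cells and below every one in CD8 T cells, as did 12.4% of the 12170 genes tested in both tables. The ratio of mean TPM in shMogat1 libraries to that in shCTRL was 1.19 in tumor cells and 0.888 in CD8 T cells for Tap1, 1.22 and 0.854 for Tap2, 1.24 and 0.845 for Psmb8, and 1.3 and 0.743 for Psmb9. The difference between the cell types was not tested, since the tables were scaled separately. Among 20 sets of 4 libraries (10 genes at weeks 3 and 4 in tumor cells) no library stood apart from its group by Dixon's criterion, which chance alone meets in about 1 set in 20.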

How the results depend on the processing

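Of 1480 recomputed log2 fold changes of the 10 genes, 1356 kept direction and side of the threshold, 51 no longer passed, 27 newly passed and 46 changed sign, 0 of these with a call on either side. A pseudocount of 0.1 moved none of the 100. The cause of the changes was not tested. TPM hides depth, and 3 or 4 libraries a group limit what could be called. The median of all genes was 0.11 in tumor week 4 against week 2 and 0.14 in week 3 against week 2, and -0.04 and -0.03 after median-of-ratios rescaling.

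Leaving out 1 library each gave 6 to 8 of the 10 genes called for tumor week 4 against week 2, 0 to 4 for week 3 against week 2, 5 to 10 for week 4 against week 3 and 0 to 6 for the difference of the steps. In CD8 T cells it gave 1 to 4, 0 to 0, 0 to 3 and 0 to 0. It gave 7 to 8 for the hairpin in tumor cells and 5 to 7 in CD8 T cells. Over all genes the calls ran in the same order from 5278 to 7765, 1371 to 5751, 1251 to 3580 and 67 to 3557 in tumor cells, from 928 to 3115, 5 to 10, 46 to 630 and 0 to 9 in CD8 T cells, and from 5842 to 6369 and 4620 to 5465 for the hairpin (with no library left out 6843, 3560, 2026 and 340, then 2335, 6, 356 and 8, then 7052 and 5878).

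Without the filter, 0 of the 10 genes were called in tumor week 3 against week 2 (B2m adjusted p = 0.0881) and 1 in CD8 week 4 against week 2, and B2m missed the threshold in tumor week 4 against week 3 (0.061). Over all genes 194 were called for the tumor steps, 234 in CD8 week 4 against week 3 and 1 for the CD8 steps. Median-of-ratios rescaling gave 3 of the 10 in tumor week 3 against week 2, 2 in CD8 week 4 against week 3 and, over all genes, 0 for the CD8 steps. Quantile normalization gave 3 of the 10 and 605 of all genes in CD8 week 4 against week 3, and 5 of all genes for the CD8 steps. A fit of 2 weeks only gave 1637 genes in tumor week 3 against week 2 and 3857 in week 4 against week 3, and 1 of the 10 and 1356 of all genes in CD8 week 4 against week 2. In CD8 T cells of the hairpin set B2m did not pass without the filter (0.0952) or after median-of-ratios rescaling (0.0981).

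Correlations of the deviations of same-numbered libraries ran from -0.263 to 0.426, not every pair was over 0.1, and no label ties a number to an animal or batch, so the numbers were not taken to pair the libraries. With the replicate block 0 of the 10 genes were called in tumor week 3 against week 2, 1 in CD8 week 4 against week 2, 0 in CD8 week 4 against week 3 and 4 in the CD8 hairpin comparison, where B2m (adjusted p = 0.141), Tap1 (0.0563, range over its alternatives 0.00217 to 0.0563) and Erap1 (0.0745) no longer passed. Over all genes the block gave 106 for the tumor steps, 1422 in CD8 week 4 against week 2, 0 in week 3 against week 2, 3 in week 4 against week 3 and 0 for the CD8 steps. The block turned the uncalled log2 differences of Tap2 in tumor week 4 against week 2 (0.0562) and of Psmb10 in CD8 week 4 against week 2 (0.0837).

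Other sign changes were of uncalled differences, near 0 in the main fit but for Tapbp in tumor week 4 against week 2 (log2 -0.25). With median-of-ratios rescaling B2m stood at 0.12 for the tumor steps, 0.16 for the CD8 steps, 0.0149 in CD8 week 4 against week 2, -0.0727 in week 3 against week 2 and 0.0877 in week 4 against week 3. Psmb8 and Psmb9 stood at 0.0625 and 0.0928 in CD8 week 4 against week 3, Tapbp at -0.0052 in CD8 week 3 against week 2 and 0.0065 in the CD8 hairpin comparison, and Nlrc5 at -0.0034 in the tumor one. With quantile normalization B2m stood at 0.0885 in CD8 week 4 against week 2 and 0.028 in week 4 against week 3. Leaving out single libraries gave B2m -0.15 to 0.0374 for the CD8 steps, -0.061 to 0.0877 in CD8 week 3 against week 2, -0.10 to 0.0521 in week 4 against week 2 and -0.10 to 0.0236 in week 4 against week 3, and -0.21 to 0.0089 for the tumor steps. In CD8 week 4 against week 2 Erap1 ran from -0.0618 to 0.12 and Psmb10 from -0.21 to 0.16. In CD8 week 4 against week 3 Psmb8 ran from -0.14 to 0.0858 and Psmb9 from -0.15 to 0.10. In CD8 week 3 against week 2 Tapbp ran from -0.16 to 0.26 and Tapbpl from -0.0817 to 0.0382. In tumor week 4 against week 2 Tap2 ran from -0.20 to 0.33 and Tapbp from -0.51 to 0.19, and Tapbpl in week 3 against week 2 from -0.15 to 0.0709.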
